A study of Mus musculus with 25 samples.

Results

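The binding of GATA1 and TAL1 around the genes Gata1 and Gata2 was described from ChIP-exo maps of mouse erythroid cells. The entries taken were those of the 6 deposited location lists that lay in the body of Gata1 or Gata2 or within 100 kb of it, which gave 216 of the 166131 entries in all lists, 68 at Gata1 and 148 at Gata2. The same window at Gata3, a GATA gene of other lineages, held 18 entries and served as the comparison. In ChIP-exo, chromatin is immunoprecipitated and an exonuclease then trims the DNA up to the cross-linked protein, so that the ends of the reads mark the edges of the contact.

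GATA1 was mapped in G1E-ER4 cells at 0 h and after 3 h and 24 h of estradiol (10 nM in the sample labels, while the study's methods state a higher dose), with 3 libraries at each time, and once in G1E cells. For TAL1 there were 5 G1E-ER4 libraries at 0 h, 3 at 3 h and 3 at 24 h, besides 4 from G1E. Both lines are erythroid progenitors of strain 129 that carry a disrupted Gata1 gene (Gata1-), and G1E-ER4 is a subline of G1E with a transgene for GATA1 fused to the ligand-binding part of the estrogen receptor, which estradiol activates. The GATA1 found at the Gata1 gene in G1E-ER4 cells was thus the fusion protein, on a copy of the gene that makes no functional GATA1. Which part of Gata1 is disrupted is not given in the sources used here, so whether any location at Gata1 lies in or beside that part is not known. Each list pools the libraries of its factor and gives 1 base position per entry with no score, read count or time, so the depth behind an entry is unknown. No spread between libraries could be computed and no difference was tested. All values below are descriptions, and their 95% exact binomial intervals cover counting error only.

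GATA1, GATA2 and GATA3 are zinc finger proteins that bind the same short DNA motif. GATA2 is needed by hematopoietic stem and progenitor cells, GATA1 by maturing red cells, megakaryocytes, eosinophils and mast cells, and GATA3 by T cells and several tissues outside blood. In erythroid maturation GATA1 replaces GATA2 on the distal elements of the Gata2 gene and Gata2 is turned off, an exchange known as the GATA switch, and GATA1 also binds regulatory elements of its own gene. TAL1 is a basic helix-loop-helix protein that binds the E-box CANNTG together with an E protein and that joins GATA1 in a complex through the adaptors LMO2 and LDB1.

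The lists were of 3 kinds. A peak pair joins a ChIP-exo peak on each strand, a MultiGPS location comes from a caller that models the reads of all times jointly, and a final location is a MultiGPS location with a peak pair of the same factor close by. Final locations are called locations from here on. Distances are given from the start of the transcript Gata1-001, the erythroid form, from Gata2-202, the transcript with the most upstream Gata2 start, and from Gata3-001. WGATAA, where W is A or T, was sought on both strands, wholly within 40 bp of a location.

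The sequences of 4 GATA1 locations are shown because they share an arrangement that was rare among all GATA1 locations, an AGATAA or TGATAA followed, after 3 bases, by the same motif on the other strand. They are from the mm9 reference, not from the cells, and read 5′ to 3′ over 81 bases centered on the location. Capitals mark WGATAA on either strand (TTATCA or TTATCT where it lies on the other strand) and a TG that lies 7 or 8 bases upstream of a WGATAA (CA where it lies on the other strand).
Gata1, 538 bp upstream, chrX:7545534-7545614 (plus strand): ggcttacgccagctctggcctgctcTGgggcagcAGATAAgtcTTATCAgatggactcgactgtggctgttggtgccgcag
Gata1, 1591 bp downstream, chrX:7543405-7543485 (minus strand): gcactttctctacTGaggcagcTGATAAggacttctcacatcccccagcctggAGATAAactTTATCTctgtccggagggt
Gata2, 2007 bp upstream, chr6:88141838-88141918 (minus strand): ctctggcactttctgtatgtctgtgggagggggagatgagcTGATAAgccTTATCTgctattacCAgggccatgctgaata
Gata2, 61696 bp downstream, chr6:88205541-88205621 (plus strand): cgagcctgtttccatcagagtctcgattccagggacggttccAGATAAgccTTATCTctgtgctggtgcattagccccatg

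These 4 were 4 of the 14 GATA1 locations at Gata1 and Gata2, 28.6% (8.39 to 58.1%). Over all 10290 GATA1 locations, 19 had facing sites 3 bases apart, 0.185%, and none of 10289 windows moved by 1 kb had them, for which the upper bound of the exact interval is 0.0358%. The arrangement was looked for after it had been seen in these sequences. At Gata1 it lay 538 bp upstream of the erythroid start and 1591 bp downstream of it, both in introns of the annotated gene. At Gata2 it lay 2007 bp upstream of the start and 61696 bp downstream of it, both outside genes. The mm9 genome held 1435 such 15-base sites, of which 19 (1.32%) lay within 40 bp of a GATA1 location and 21 within 40 bp of a GATA1 MultiGPS location. All 4 of those in the Gata1 and Gata2 windows, 2 at each gene, were among the 19, and the Gata3 window held none. The closest start site of the other 15 locations was never that of a GATA gene, although 1 of them, closest to the start of Taf3, was 130191 bp upstream of the Gata3 start and so outside the window. With any gap of 0 to 10 bases between the facing sites, the count at Gata1 and Gata2 was again 4 of 14, and over all GATA1 locations it was 1.03%.

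**Figure D1:**
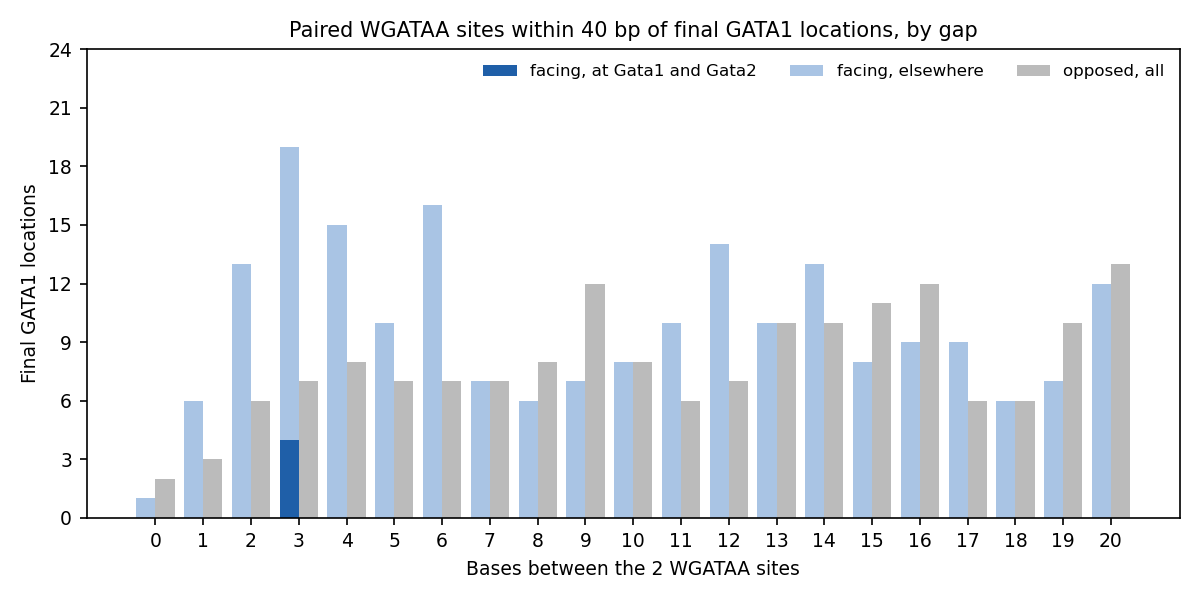
Number of final GATA1 locations (vertical axis) with 2 WGATAA sites within 40 bp, by the bases between the sites (horizontal axis). Blue bars are facing sites (WGATAA and then its reverse complement), dark for the Gata1 and Gata2 windows and light for the rest, and grey bars are sites in the opposed order. The facing gap of 3 bases had the tallest bar with 19 locations, and it held the 4 at Gata1 and Gata2. The 15 elsewhere were no more than the 15 at a gap of 4 bases and the 16 at 6 bases. That this bar is the tallest thus rests on the 4.

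The next 4 sequences are those of the GATA1 locations with WGATAA that TAL1 shared and that had no facing sites. They show how WGATAA and, at the last 2, the TG before it are spaced, with the same use of capitals.
Gata1, 3601 bp upstream, chrX:7548597-7548677 (plus strand): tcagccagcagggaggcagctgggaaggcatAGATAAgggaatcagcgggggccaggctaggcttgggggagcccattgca
Gata2, 76932 bp upstream, chr6:88066913-88066993 (minus strand): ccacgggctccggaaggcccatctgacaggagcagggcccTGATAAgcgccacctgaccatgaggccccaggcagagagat
Gata2, 3109 bp upstream, chr6:88140736-88140816 (plus strand): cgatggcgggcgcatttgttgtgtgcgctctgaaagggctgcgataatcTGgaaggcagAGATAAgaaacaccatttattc
Gata2, 9306 bp downstream, chr6:88153151-88153231 (plus strand): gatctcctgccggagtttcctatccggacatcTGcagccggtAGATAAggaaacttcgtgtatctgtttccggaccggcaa

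In the 100 kb windows, GATA1 locations were more numerous around Gata2 than around Gata1, and both had more than Gata3. The order of Gata1 and Gata2 depended on the window, as windows of 200 kb held 11 at Gata1 and 10 at Gata2. Within 100 kb the final list held 4 GATA1 locations at Gata1 and 10 at Gata2, against 1 at Gata3. Of 22208 protein-coding genes, 55.2% had at least 1 in this window, with a median of 1 per gene. As many as at Gata2 or more were found for 451 genes (2.03%) and as many as at Gata1 or more for 4431 genes, against 12265 genes (55.2%) for Gata3. Within 10 kb of the body, where 23.9% of all genes had a GATA1 location, the counts were 4 at Gata1 and 5 at Gata2, against 1 at Gata3. As many or more within 10 kb were found for 2.75% of genes in the case of Gata1 and for 1.52% in the case of Gata2, against 23.9% for Gata3. Within 100 kb, the whole of the Gata1 set thus lay close to the gene, while that of Gata2 reached out to both sides.

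TAL1 had more locations than GATA1 at both genes. Within 100 kb there were 8 TAL1 locations at Gata1 and 13 at Gata2, against 1 at Gata3, and 53.4% of all genes had at least 1. As many or more were found for 11.6% of genes in the case of Gata1 and for 4.06% in that of Gata2, against 53.4% for Gata3. Within 10 kb, where 21.3% of all genes had a TAL1 location, Gata1 and Gata2 had 6 each and Gata3 had 0. The final TAL1 list is also the larger one over the whole genome, with 15209 locations against 10290 for GATA1.

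**Figure D2:**
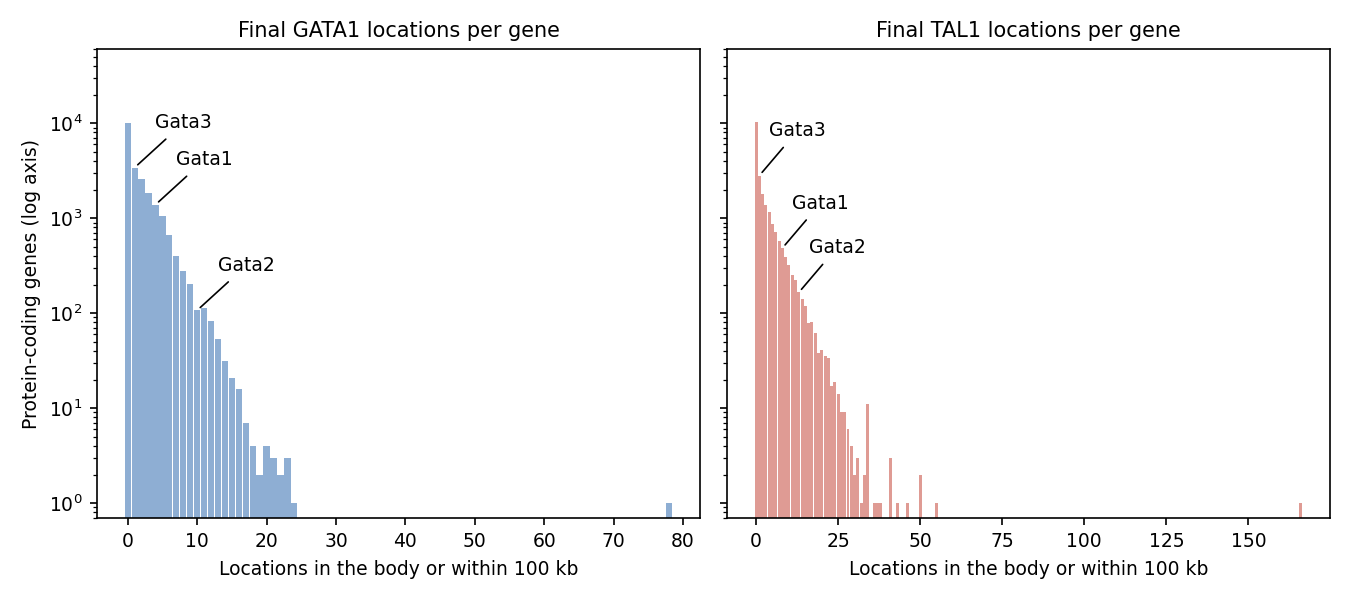
Number of protein-coding genes (vertical axis, logarithmic) by their number of final GATA1 or TAL1 locations in the body or within 100 kb (horizontal axis). Lines point to the bars that hold Gata1 (4 GATA1 and 8 TAL1 locations), Gata2 (10 and 13) and Gata3 (1 and 1).

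The window was a choice of distance, and its edge fell in a gap between locations for both factors. At Gata1, the farthest GATA1 location inside lay in the body itself, and the closest one outside was 118013 bp from it. The TAL1 values there were 15634 bp inside and 121926 bp outside. At Gata2, the farthest GATA1 location inside was 76932 bp from the body and the closest outside was 230939 bp away, with 77384 and 117536 bp for TAL1. A window of 200 kb in place of 100 kb gave 11 GATA1 and 15 TAL1 locations at Gata1, against 4 and 8, and 10 and 14 at Gata2, against 10 and 13.

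**Figure D3:**
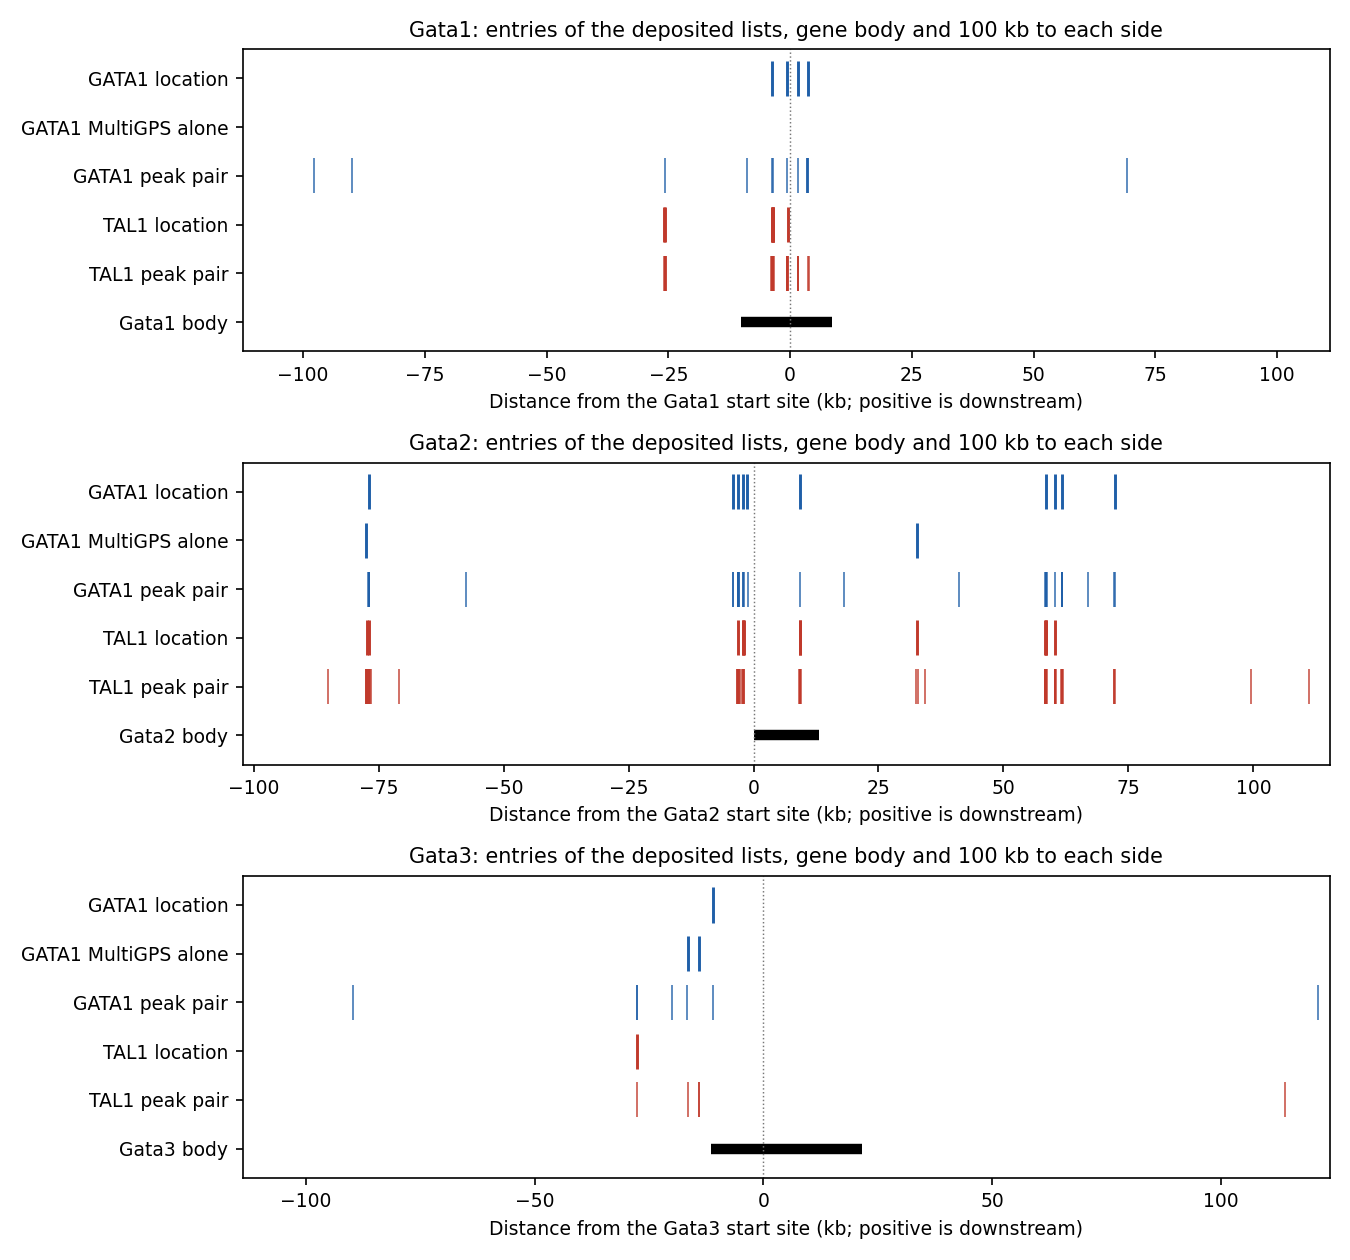
Entries of the lists (vertical ticks, 1 row per kind) against the distance from the start site in kb, over the gene body and 100 kb to each side, for Gata1, Gata2 and Gata3 from top to bottom. Blue is GATA1, red is TAL1 and the black bar is the gene body. The Gata1 locations gather within the body with 1 TAL1 group 25.6 kb upstream, those of Gata2 form groups at the start, in the body and far to both sides, and Gata3 has 1 location of each factor.

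At Gata1 (ENSMUSG00000031162.8, chrX:7536386-7555197, minus strand, mm9), the 4 GATA1 locations fell in introns. The gene body includes a transcript with a distal start, Gata1-002, so that locations upstream of the erythroid start are intronic as well. The first was at position 7548637, 3601 bp upstream of the erythroid start and 101 bp from the nominal distance of the enhancer that is named after 3.5 kb upstream and known to drive Gata1 in erythroid cells and megakaryocytes. It had 1 WGATAA, whose middle was 6.5 bp away, and a TAL1 location 10 bp away. The next, at 7545574, was 538 bp upstream of the start, had the facing sites and a TAL1 location 26 bp away. The Gata1 promoter region is known for a palindromic pair of GATA sites that eosinophils need. The third, at 7543445, was 1591 bp downstream of the start with 3 WGATAA sites, the facing pair among them. The last, at 7541295, was 3741 bp downstream and 3 bp from the start of the short transcript Gata1-003. It had no WGATAA, although it had 2 matches to the core GATA, and it lay 241 bp from the nominal distance of the intronic element named after 3.5 kb downstream.

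TAL1 was called beside every GATA1 location at Gata1, but not always by both callers. The locations 3601 and 538 bp upstream were cooccupied, meaning that a final TAL1 location lay under 40 bp away. The locations 1591 and 3741 bp downstream had a TAL1 peak pair 12 bp and 2 bp away, yet the closest TAL1 location was 2103 bp and 4253 bp away. The TAL1 MultiGPS list held the same 8 entries at Gata1 as the final list.

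The TAL1 group with the most locations at either gene was on the upstream enhancer of Gata1. There 5 TAL1 locations followed each other over 273 bp, at positions 7548458, 7548504, 7548614, 7548647 and 7548731, with 10 TAL1 peak pairs. Only the middle one and the next, 7548614 and 7548647, were within 40 bp of the single GATA1 location, at 23 and 10 bp, and the single WGATAA of the stretch was 16.5 bp from both. The 3 others were 94, 133 and 179 bp from GATA1 and had no WGATAA within 40 bp. A further TAL1 group with 2 locations, at 7570650 and 7570831, stood 25614 and 25795 bp upstream, outside genes. No GATA1 location was there, but a GATA1 peak pair lay 14 bp from the first, which also had a WGATAA preceded by TG after 8 bases, in TATCTG. The closest start site of all 12 locations of both factors was a Gata1 start, although the window held 12 other protein-coding genes.

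**Figure D4:**
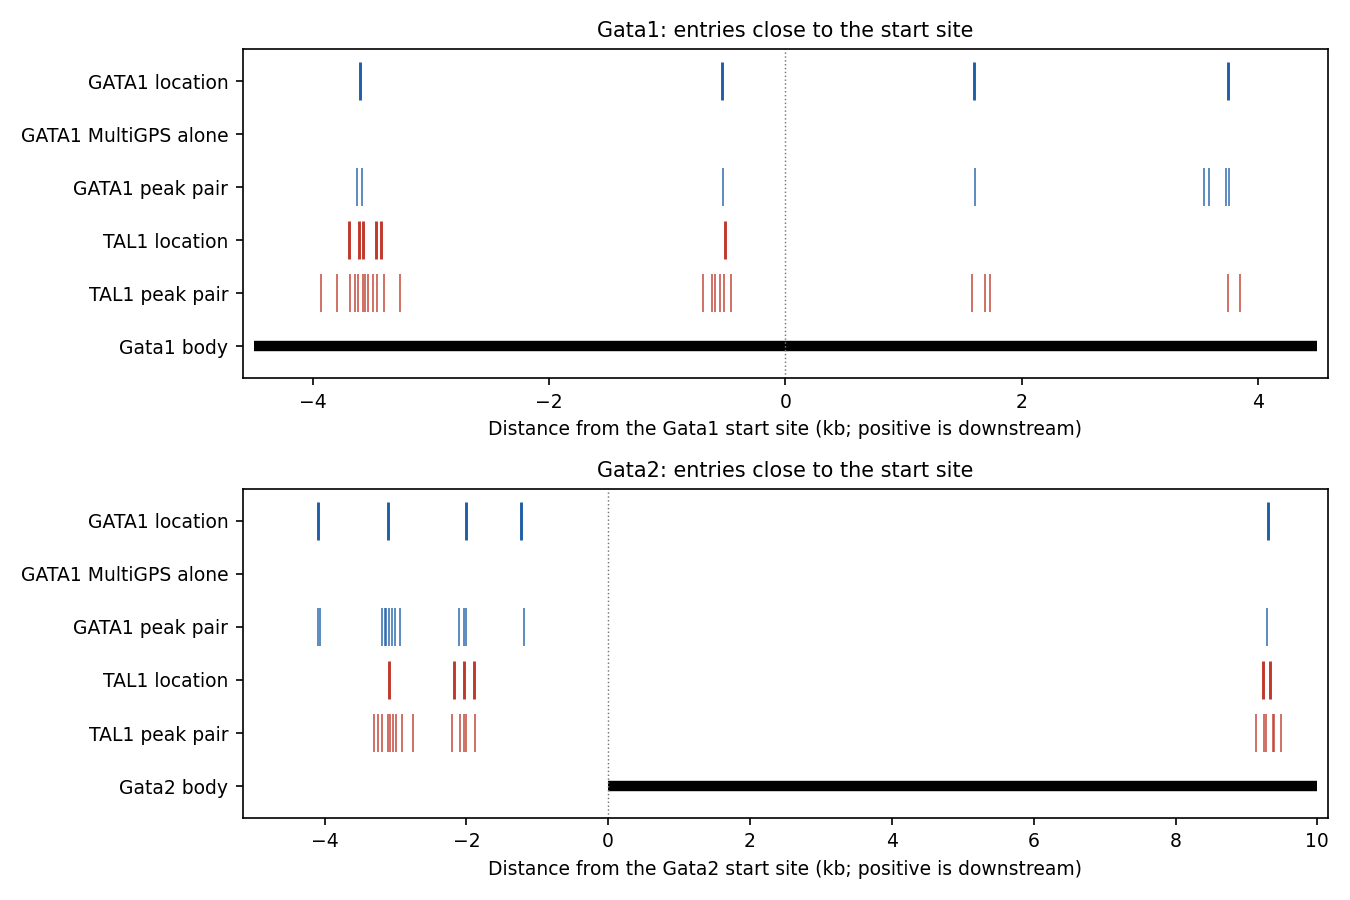
The same rows close to the start site, from 4.5 kb upstream to 4.5 kb downstream for Gata1 and from 5 kb upstream to 10 kb downstream for Gata2, against the distance from the start in kb. The GATA1 locations form 4 positions at Gata1, of which the upstream ones have TAL1 locations, with 5 at the enhancer. At Gata2, 4 GATA1 locations precede the start and TAL1 locations accompany the ones 3.11 and 2.01 kb upstream and the one 9.31 kb downstream.

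At Gata2 (ENSMUSG00000015053.8, chr6:88143885-88157024, plus strand, mm9), 4 GATA1 locations lay within 5 kb upstream of the start, 1 in the body, 1 far upstream and 4 far downstream. Elements of this gene are known by their distance from the start in kb, and the locations were set beside those names. For the elements named after 77, 3.9, 2.8 and 1.8 kb upstream and 9.5 kb downstream, the closest GATA1 location was 68, 190, 309, 207 and 194 bp from the nominal distance. All 5 elements are described in the field as sites where GATA2 is exchanged for GATA1, and the one downstream, in an intron, is known to be needed for blood stem cells to arise.

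The element far upstream had its GATA1 location at 88066953, 76932 bp upstream of the start and outside genes. It had 5 GATA1 peak pairs within 100 bp, a count reached at 5.80% of all GATA1 locations. Its TGATAA was 2.5 bp from the location and a TAL1 location lay 6 bp away, the closest approach of the factors at either gene. A second TAL1 location stood 458 bp from that one, at 88066501, and 85 bp from it was a GATA1 MultiGPS location at 88066416 that had no GATA1 peak pair within 100 bp but had 4 TAL1 peak pairs. It had no WGATAA. The closest start site to this element was that of Rpn1, a subunit of the oligosaccharyltransferase, at 32486 bp.

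Of the 4 locations before the start, 2 had WGATAA and TAL1 and the other 2 had neither. The one at 88139795, 4090 bp upstream, had neither WGATAA nor TAL1, and its closest TAL1 peak pair was 782 bp away. The one at 88140776, 3109 bp upstream, had 5 GATA1 peak pairs and a TAL1 location 14 bp away, and its AGATAA followed AATCTG after 8 bases. The one at 88141878, 2007 bp upstream, had the facing sites, a TG 8 bases upstream of the AGATAA, in GCCCTG, and a TAL1 location 22 bp away. This was the middle one of 3 TAL1 locations over 288 bp, and the others were 121 and 167 bp from GATA1. The one at 88142650, 1235 bp upstream, had again neither WGATAA nor TAL1, with the closest TAL1 peak pair 636 bp away. Its only GATA1 peak pair was 52 bp off, the largest such distance among the 14.

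The location in the body, at 88153191, was in an intron 9306 bp downstream of the start. Its AGATAA was 4.5 bp away and followed the E-box CATCTG after 8 bases, which is the composite of E-box and GATA motif for which this element is known. A TAL1 location lay 25 bp away, and a second one, 98 bp from it, was 73 bp from GATA1. There was 1 GATA1 peak pair within 100 bp, against 4 of TAL1.

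Farther downstream, GATA1 and TAL1 were listed in a region that is not among the named elements. Its GATA1 locations were at 88202341, 88204229, 88205581 and 88216104, which is 58456, 60344, 61696 and 72219 bp from the start. The first 3 were outside genes and the last was in an intron of Eefsec, the elongation factor for selenocysteine. The closest start site for all 4 was that of Dnajb8, a DNAJ chaperone gene, at 30079 to 43842 bp. TAL1 locations lay 10 bp from the first, the middle one of 3 over 239 bp with 10 TAL1 peak pairs, and 22 bp from the second. Neither had a WGATAA within 40 bp of the GATA1 location. Beside the first, however, the GATA1 peak pairs at 88202267, 88202299 and 88202325 each had 1 WGATAA within 40 bp. The TAL1 location beside the second had a TGATAA 18.5 bp away, which followed the E-box CAGCTG after 7 bases. The third had the facing sites and 4 GATA1 peak pairs, and a TAL1 peak pair 1 bp away without a TAL1 location. The last had no WGATAA and a TAL1 peak pair 32 bp away. Between this region and the gene, at 88176645, a GATA1 MultiGPS location with an AGATAA 21.5 bp away stood 8 bp from a TAL1 location, but no GATA1 peak pair was within 100 bp and the entry was not in the final list.

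Cooccupancy was counted over all these locations. Of the GATA1 locations, 2 of 4 at Gata1 and 6 of 10 at Gata2 had a TAL1 location under 40 bp away, together 57.1% (28.9 to 82.3%), against 35.9% of all GATA1 locations. The interval includes the value over all locations. Of the TAL1 locations, 9 of 21 were cooccupied, 42.9% (21.8 to 66.0%), against 27.5% of all. When TAL1 peak pairs were used in place of TAL1 locations, 4 of 4 at Gata1 and 8 of 10 at Gata2 were within 40 bp, and 48.1% of all GATA1 locations. When cooccupancy was held to under 20 bp, 1 of 4 at Gata1 and 3 of 10 at Gata2 were cooccupied. The single GATA1 location at Gata3 was not cooccupied.

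The exact motif was at 8 of the 14 GATA1 locations. WGATAA was within 40 bp of 3 of 4 GATA1 locations at Gata1 and 5 of 10 at Gata2, together 57.1% (28.9 to 82.3%), against 66.5% of all GATA1 locations and 8.29% of windows moved by 1 kb. The core GATA was within 40 bp of all 14, as it was for 92.1% of all. With a weight matrix of 8 bp learned from GATA1 locations, 11 of 14 had a site, 78.6%, against 81.0% of all. The E-box consensus CANNTG was within 40 bp of 11 of the 14, 78.6% (49.2 to 95.3%), against 38.2% of all GATA1 locations. At least 2 WGATAA sites were within 40 bp of 4 of the 14, 28.6% (8.39 to 58.1%), against 16.1% of all. Of the TAL1 locations, 10 of 21 had WGATAA within 40 bp, 47.6% (25.7 to 70.2%), against 45.9% of all TAL1 locations and 8.23% of windows moved by 1 kb. The E-box was within 40 bp of 13 of 21, 61.9% (38.4 to 81.9%), against 45.3% of all.

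A TG that precedes WGATAA by 7 or 8 bases was present at 5 of the 8 GATA1 locations with WGATAA, 62.5% (24.5 to 91.5%), against 32.9% of all such locations. Among those that were also cooccupied it was present at 4 of 6, against 50.2% of all cooccupied ones and 22.1% of those that were not. The gap was 8 bases at the 3 Gata2 sites and 7 bases at the 2 Gata1 sites. The hexamer that ended in the TG was CTACTG at the Gata1 location 1591 bp downstream. It was GCTCTG at the one 538 bp upstream. Of the 5, only the CATCTG in the intron of Gata2 was a full E-box. The cooccupied Gata1 location 3601 bp upstream, not among the 5, had the E-box CAGCTG more than 8 bases before its AGATAA.

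The side of WGATAA on which the peak pairs lay was read in the direction of the motif. Within 40 bp of the closest WGATAA, 10 of 13 GATA1 peak pairs at the 8 locations were upstream, against 60.0% over all GATA1 locations with WGATAA. At the 4 locations with facing sites the direction depends on which site is taken. With the other site in place of the closest one, a choice made after seeing the data, 7 of 12 were upstream, and at the 4 locations without facing sites 5 of 6 were. Of the 13 pairs, 2 were inside the WGATAA itself. At the Gata1 location 1591 bp downstream, 2 WGATAA sites were equally close, at 15.5 bp. The one with the lower coordinate was taken, and from the other the only GATA1 pair there would be downstream. Of the TAL1 peak pairs at the 6 cooccupied locations, 7 of 11 were upstream of the closest site, against 56.5%, and facing sites bear on this count as well. A pair gives the middle of the contact only, with no strength.

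**Figure D5:**
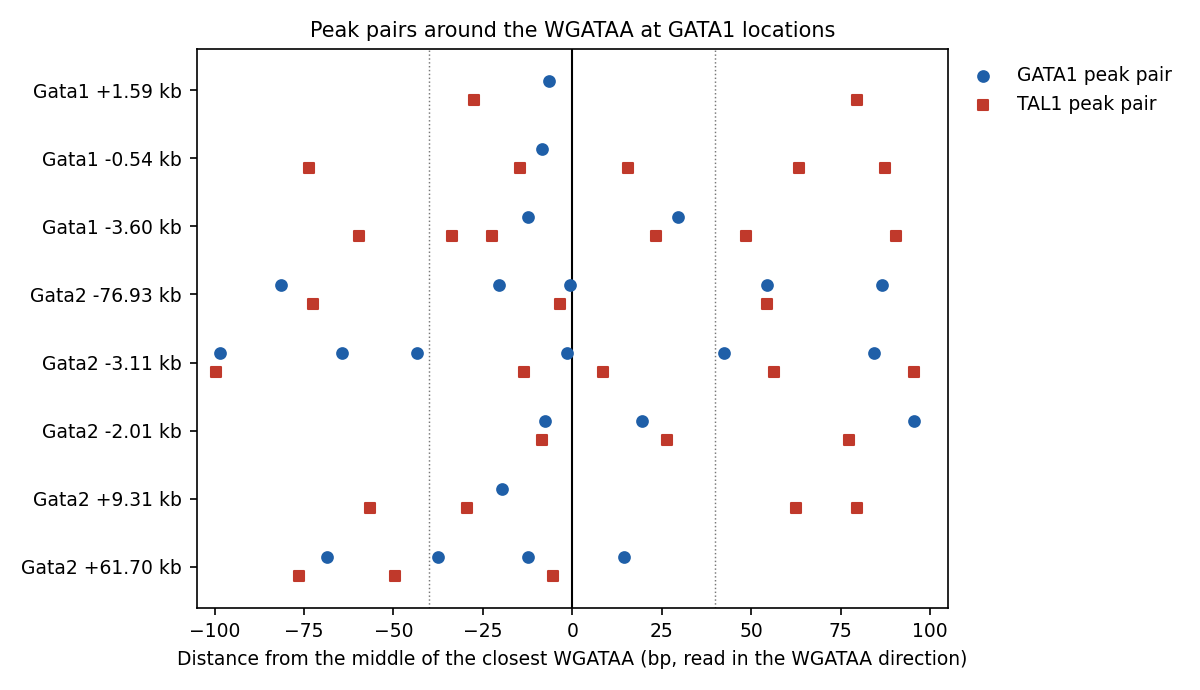
Peak pairs at the 8 GATA1 locations with WGATAA, 1 row per location named by gene and distance from the start in kb, against the distance from the middle of the closest WGATAA in bp, with negative values upstream in the direction of the motif. Blue circles are GATA1 pairs, red squares are TAL1 pairs and dotted lines mark 40 bp. Each row has a GATA1 pair at most 40 bp from the middle of the motif, on the negative side of it, and 2 of these pairs are inside the motif. In the Gata1 row at 1.59 kb downstream, 2 sites were equally close. From the site not taken, the pair would be on the positive side.

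At these genes GATA1 locations stood singly and most TAL1 locations in groups, with intervals that include the shares over all locations. No GATA1 location was under 500 bp from another at Gata1 or Gata2, 0 of 14 with an upper bound of 23.2%, against 13.7% of all GATA1 locations. Of the TAL1 locations, 7 of 8 at Gata1 and 10 of 13 at Gata2 were under 500 bp from another, together 81.0% (58.1 to 94.6%), against 64.4% of all. These were 6 groups with 2, 2, 2, 3, 3 and 5 locations over 98 to 458 bp, and 5 of the 6 had 1 GATA1 location within 40 bp of their span. Because the locations of a group are counted together, the TAL1 interval, which treats them as independent, understates the counting error. The same holds for the TAL1 intervals given above for cooccupancy, WGATAA and the E-box. For example, the TAL1 locations 7548614 and 7548647 at Gata1 were both counted for the same WGATAA and the same GATA1 location. None of the 35 locations of both factors was in an exon. The share in exons over all locations was not computed, so this count has no comparison.

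The callers were set against each other at these genes. Of the MultiGPS locations of GATA1, 14 of 16 at Gata1 and Gata2 were in the final list, against 80.5% of all, and of those of TAL1 21 of 21 were, against 86.2%. Many peak pairs were listed away from any location. At Gata1, 7 of 13 GATA1 pairs and 10 of 31 TAL1 pairs lay over 100 bp from a MultiGPS location of their factor. At Gata2 these were 7 of 35 and 27 of 65, and at Gata3 6 of 7 and 4 of 5. Over all lists the shares were 53.9% for GATA1 and 49.9% for TAL1. At Gata1 they included 2 GATA1 pairs at 160 and 198 bp from the location 3741 bp downstream.

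At Gata3 (ENSMUSG00000015619.9, chr2:9778705-9811661, minus strand, mm9), the only GATA1 location was at 9811324, 11097 bp upstream of the Gata3-001 start and in an intron of a longer Gata3 transcript. The most upstream Gata3 start was at 9811661, and the start closest to the location, at 157 bp, was that of the gene 9230102O04Rik. The location had neither WGATAA nor a learned matrix site nor CANNTG within 40 bp. It had 1 GATA1 peak pair, and its closest TAL1 peak pair was 2974 bp away. The only TAL1 location was 27612 bp upstream, closest to the start of Taf3 at 12196 bp, with a GATA1 peak pair 19 bp away. Beyond these, 2 GATA1 MultiGPS locations stood without a GATA1 peak pair within 100 bp, at 9814387 and 9816642. Both had WGATAA, 2 sites at the position closer to the gene and 1 at the other, and TAL1 peak pairs 57 and 31 bp away.

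The MultiGPS location at 9814387, which is 2726 bp upstream of the whole Gata3 body, shared a stretch of sequence with the Gata2 location 3109 bp upstream. Over the 96 pairs of GATA1 MultiGPS windows of 81 bp from different genes among Gata1, Gata2 and Gata3, read on both strands, it was the longest ungapped match with at most 1 difference, 24 bases of which 23 were identical. The next longest was 19 bases and the median per pair and strand was 9 bases. The comparison was made after the resemblance had been seen. The stretch holds a GATA, then CTG, and AGATAAG at its end:
Gata2, chr6:88140778-88140801 (plus strand): GATAATCTGGAAGGCAGAGATAAG
Gata3, chr2:9814396-9814419 (minus strand): GATAATCTGGAAAGCAGAGATAAG

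In mm9 this stretch, with any base at the position that differs, occurred 2 times, at these places only. Distances were taken from the middle of the stretch. The copy at Gata2 was 14 bp from the GATA1 location, 6 bp from a GATA1 peak pair and 6 bp from a TAL1 peak pair. Both of these pairs, at 88140796 and 88140784, lay inside the stretch. The copy at Gata3 was 21 bp from a GATA1 MultiGPS location and 78 bp from a TAL1 peak pair, but 2397 bp from the closest GATA1 peak pair.

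The other GATA genes, which act in heart, gut and other organs, had no location of either factor within 10 kb. Within 100 kb, Gata4 had 2 GATA1 and 4 TAL1 locations, Gata5 had 3 and 3, and Gata6 had 0 and 0. Of the 6 GATA genes, 3 had a GATA1 location within 10 kb and 2 a cooccupied one, which are Gata1 and Gata2. Over all genes the shares were 23.9% and 11.1%.

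The wider network was described with a pair of lists, which were chosen with earlier results of these data known. Over all genes, 23.9% had a GATA1 location, 21.3% a TAL1 location and 11.1% a cooccupied one within 10 kb. Counts were not adjusted for gene length. The first list holds the 7 factors known to bind together in blood stem and progenitor cells, Gata2, Tal1, Lyl1, Lmo2, Erg, Fli1 and Runx1. All 7 had GATA1, TAL1 and cooccupied locations within 10 kb, with medians of 4 GATA1 and 6 TAL1 locations, against 0 and 0 over all genes. Gata2, with 5 GATA1 and 6 TAL1 locations, was near these medians, while Runx1 had 12 and 18 and Lyl1 had 2 and 6. The second list holds 8 genes for partners of GATA1 and for PU.1, its antagonist. All 8 had GATA1 and TAL1 locations, with medians of 2 and 5, and 7 had a cooccupied one. Zfpm1, which codes for the cofactor FOG1, had 19 GATA1 and 37 TAL1 locations, and Cbfa2t3, which codes for the corepressor ETO2, had 5 and 23. Sfpi1, the gene for PU.1, had 1 and 1, Ldb1 had 1 and 2, and Klf1 had 2 and 6. Tcf3, which codes for the E proteins that pair with TAL1, had 1 and 2 and was the exception without cooccupancy.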

How the data were processed

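GATA1 and TAL1 were mapped by ChIP-exo in 25 libraries of G1E and G1E-ER4 cells. The authors used CASAVA 1.7 and bcl2fastq 2.15 for base calls, aligned reads to mm9 with Bowtie 1.00 or BWA 0.6.2 and 0.7.9a, kept uniquely mapped reads, merged replicates, removed blacklisted regions and kept calls above an enrichment over input. The deposited lists hold mm9 positions without a score, as peak pairs, MultiGPS locations and the final intersection. By the study's text the GATA1 lists pool the G1E-ER4 libraries, while the labels also link the G1E library to the GATA1 lists. Unique mapping leaves repeats out, and pooling hides the time of binding.

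Windows, motifs, distances and counts were computed with Python 3.11.15, numpy 2.4.6, scipy 1.17.1, pysam 0.24.0 and samtools 1.23.1, and figures with matplotlib 3.10.9. Gene bodies were those of 22208 protein-coding genes in GENCODE vM1 on mm9, from which sequences were also read. Peak pairs were assigned to locations at most 100 bp away, and locations under 500 bp apart formed a group. The weight matrix was learned from 500 locations in 30 iterations, and sites were called at the score that random sequence reaches with a frequency of 0.001. The counting was tested on simulated data. Genes named are the 3 GATA genes, those with the closest start to a location or overlapping one, and the listed genes. Spi1 was matched through its older symbol Sfpi1. The members and gene lists were chosen with earlier results of these data known.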

Additional observations from a re-analysis of the deposited data

How the results depend on the processing

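Over 11 results, 38 alternative values were computed and 30 were within 1.5 times the reported count. With windows of 10 kb in place of 100 kb, Gata2 had 5 GATA1 and 6 TAL1 locations, and with windows of 200 kb Gata1 had 11 GATA1 and 15 TAL1 locations. With cooccupancy under 20 bp, 3 GATA1 locations were cooccupied at Gata2 and 1 at Gata1. With TAL1 peak pairs in place of locations, 4 were at Gata1. The core GATA in place of WGATAA was within 40 bp of 10 GATA1 locations at Gata2. The windows and distances differ by construction. For cooccupancy, the use of GATA1 MultiGPS locations in place of final ones, which gave 7 at Gata2 and 2 at Gata1, was chosen after seeing the data, as were the wider gap between facing sites and the other facing site as the origin for peak pairs. A closer peak pair, all MultiGPS locations, the learned matrix and other group distances kept the counts within 1.5 times. No paired analysis was possible because the lists pool the libraries, and no library could be left out for the same reason. The small numbers, 4 to 14 locations, limit each share, and without read counts a strong location cannot be told from a weak one.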
